A study of Mus musculus with 18 samples.

Results

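Nuclear genes for oxidative phosphorylation were followed in mouse CD8 T cells. They were the rows of the deposited expression table whose symbol starts with Nduf (complex I), Uqcr (complex III), Cox4 to Cox8 (complex IV) or Atp5 (complex V), or is Sdha, Sdhb, Sdhc or Sdhd (complex II), without symbols marked as pseudogenes. A gene was a member if its value was at least 10 in at least 4 of the 18 libraries. Of 96 matching symbols 4 were pseudogenes and 10 stayed below the minimum, which left 82 members among the 9437 genes that met the same minimum and the 46983 rows of the table. The members were 36 subunits of complex I, 6 complex I assembly factors, 4 subunits of complex II, 8 of complex III, 12 of complex IV and 16 of complex V. Ndufa4, a subunit of complex IV in spite of its name, was counted there. Every value of a gene below is a normalized expected read count, unless a log2 value is named.

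Oxidative phosphorylation makes ATP in the inner mitochondrial membrane. Complexes I and II pass electrons from NADH and succinate to ubiquinone, complex III passes them on to cytochrome c, complex IV reduces oxygen, and complex V, the ATP synthase, uses the proton gradient that complexes I, III and IV build. Complex II is wholly nuclear-encoded, whereas the other complexes join nuclear-encoded subunits with a few from mitochondrial DNA. Naive T cells rely largely on this pathway, and memory CD8 T cells are known for a large mitochondrial reserve capacity.

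The cells were CD8 T cells, naive (CD44 low) or of memory phenotype (CD44 high), without treatment per the labels. There were 4 libraries of each state from wild-type mice and 5 of each from mice with the genotype Dock2-Hsd/Hsd, labelled Dock2-/-. Dock2 activates the GTPase Rac in leukocytes and is needed for their migration. The strain field reads C57BL/6J throughout, but C57L6NHsd stands in the descriptions of the libraries deficient in Dock2, so genotype and a difference in substrain cannot be told apart. The labels name no age and do not say that replicates came from separate animals, so a p-value here speaks of the spread among libraries, and that spread may be technical. Values in each group are given in the order of the library numbers. Each complex was compared across the 4 groups, between memory and naive cells in each genotype and between genotypes in each cell state.

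Depth was 2215987 to 8257768 expected reads per library, of which the ribosomal RNA gene Rn18s-rs5 took 37.0% to 69.4%. Cd8a, Cd8b1, Cd3e, Cd3g and Cd3d summed to between 5195 and 11558 in every library, and the memory-phenotype genes Cd44, Il2rb, Cxcr3, Ccl5 and Eomes to at most 936 in naive and at least 4830.02 in memory libraries, which fits both labels. The naive sums were 278 to 445 in wild-type and 407 to 936 in Dock2-deficient libraries. Between these naive groups Cxcr3 (at most 8.38 against at least 13.6) and Ccl5 (at most 5.42 against at least 18.9) did not overlap. Cd44, Il2rb and Eomes did overlap. Whether memory-type cells in the Dock2-deficient naive libraries affect the comparisons below was not tested. Markers of other cells were low: of B cell genes Cd79b reached at most 53.1 and Ms4a1 3.33, and sums reached at most 27.95 for 4 CD4 T cell genes and 139.8 for 6 rows of myeloid genes (mostly Cst3). Sums of 4 NK cell genes reached 49.8 in wild-type memory and 34.5 in Dock2-deficient memory libraries (mostly Fcer1g, with Ncr1 at most 5.80), and of 4 erythroid genes 221 in a Dock2-deficient naive library. Dock2 itself ran from 288 to 514 in wild-type and from 171 to 373 in Dock2-deficient naive libraries, groups that overlapped, and from 399.7 to 844 against 61.0 to 279.6 in memory libraries, which did not (log2 fold change -1.64 ± 0.36 (SE), adjusted p = 0.121 from limma). Xist RNA was at 1820.4 to 3887 in the 8 wild-type libraries and in Dock2-deficient libraries 1 of each state, and at 0 to 5.44 in the other 8, so genotype and sex are largely aligned and their parts cannot be told apart. Dock2-deficient memory library 5 and wild-type memory library 4 stood apart in principal components of the tested genes, the former at 82.8 on the first (the others from -62.6 to 47.2) and the latter at 113.9 on the second (the others from -31.7 to 22.5). In library 5 the share of Rn18s-rs5 was the lowest of the 18 and the median log2 value of the members the highest, so results are also given without it. In bulk RNA, fewer cells of a type and less RNA per cell cannot be told apart.

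Sequence near the transcription starts is shown first, because the promoters of these genes are known to share binding motifs for nuclear respiratory factor 1 (NRF1), the ETS family with GABP, YY1 and CREB. RefSeq promoter windows (GRCm38.p6, 250 bases before to 50 after the start, 300 in all) were found for 68 of the 82 members and were searched on both strands. The NRF1 letters GCGCATGC stood in 12 of them (17.6%), against 6.54% of 6866 promoters of tested genes and 2.80% of all 27025 promoters. The YY1 letters AAGATGGC stood in 8 (11.8%, against 5.83% and 2.88%), the CRE letters TGACGTCA in 4 (5.88%, against 3.63% and 1.88%) and the ETS letters CCGGAAGT in 5 (7.35%, against 10.5% and 4%). Matches of different motifs did not overlap in these windows, and 27 of 68 members held any of them (39.7%, against 24.0% and 10.7%). Median GC content of the windows was 58.5% for the members, 61.0% for tested genes and 52.7% for all promoters. A match describes the letters and is not evidence of binding.

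The 12 members with the NRF1 letters are shown with 10 bases on either side, 5′ to 3′ on the gene's strand. Capitals mark the match, which reads GCATGCGC where it lies on the other strand, and positions give its first base relative to the transcription start. They include subunits of complexes I, II, III, IV and V and the assembly factors Ndufaf4 and Ndufaf5. In Atp5g2, Atp5k, Cox6a1, Ndufa11, Ndufaf4, Ndufaf5 and Uqcrc1 the 2 bases after the capitals complete an overlapping match on the other strand, and Ndufaf4 holds another match at position 1, not shown.
Atp5g2 (chr15:102671072-102671099, minus strand, position -42): ggctccggccGCGCATGCgcagagcctt
Atp5k (chr5:108434432-108434459, minus strand, position -50): tttcactgcgGCGCATGCgcctttctgg
Atp5l (chr9:44920965-44920992, minus strand, position -240): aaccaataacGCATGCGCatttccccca
Cox6a1 (chr5:115349103-115349130, minus strand, position -162): caggaacgggGCGCATGCgcgctctcgc
Ndufa11 (chr17:56717692-56717719, plus strand, position -60): cctgcactgcGCGCATGCgcgcacgcct
Ndufa6 (chr15:82354357-82354384, minus strand, position -83): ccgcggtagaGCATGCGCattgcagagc
Ndufa8 (chr2:36049329-36049356, minus strand, position -8): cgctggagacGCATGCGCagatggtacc
Ndufaf4 (chr4:24897960-24897987, plus strand, position -113): ccagatgtctGCGCATGCgcctgtgcgg
Ndufaf5 (chr2:140170652-140170679, plus strand, position 16): agtcccgttgGCGCATGCgcctaataga
Sdhb (chr4:140961207-140961234, plus strand, position -54): agcccagtggGCATGCGCcctacgggcc
Uqcr11 (chr10:80406808-80406835, minus strand, position -4): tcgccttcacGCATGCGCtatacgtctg
Uqcrc1 (chr9:108936668-108936695, plus strand, position 30): actccgctctGCGCATGCgcagcgcggc

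The YY1 letters lay in a narrow stretch. In all 8 members they lay on the gene's own strand, 22 to 38 bases after the start, and the ATG inside them was the annotated start codon in GENCODE. A sense match within 50 bases after the start was present in 11.8% of member promoters, 2.88% of those of tested genes and 0.958% of all. This class was not planned and follows from where these 8 matches lay, so all 8 fall in it. It therefore adds no support to the shares over the whole window given above. How many other promoters hold a start codon that close was not counted. Of these 8 genes 7 encode complex I subunits, Ndufc1 among them, whose values are described below, and Atp5j2 encodes a membrane subunit of complex V. Capitals mark the match.
Atp5j2 (chr5:145191501-145191528, minus strand, position 23): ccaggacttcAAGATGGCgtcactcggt
Ndufa3 (chr7:3617385-3617412, plus strand, position 22): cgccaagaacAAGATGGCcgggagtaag
Ndufa9 (chr6:126849098-126849125, minus strand, position 29): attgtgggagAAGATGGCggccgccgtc
Ndufb8 (chr19:44555393-44555414, minus strand, position 38): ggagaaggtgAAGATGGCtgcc
Ndufc1 (chr3:51408916-51408943, minus strand, position 22): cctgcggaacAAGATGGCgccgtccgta
Ndufs4 (chr13:114388045-114388069, minus strand, position 35): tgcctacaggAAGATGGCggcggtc
Ndufs6 (chr13:73328433-73328459, minus strand, position 33): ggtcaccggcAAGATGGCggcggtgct
Ndufs7 (chr10:80249463-80249490, plus strand, position 24): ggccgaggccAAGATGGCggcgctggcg

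In a pair of members an NRF1 match stood together with another motif, and their 250 bases before the start are printed in full. Ndufa11, a complex I subunit, holds CRE and NRF1 letters, and Uqcr11, a small subunit of complex III, holds ETS and NRF1 letters, all in capitals. The NRF1 letters in Ndufa11 run on into a mirrored copy, so 10 bases are in capitals, and those in Uqcr11 cross the start, so that only their first 4 bases are at the end of the line.
Ndufa11 (chr17:56717512-56717761, plus strand): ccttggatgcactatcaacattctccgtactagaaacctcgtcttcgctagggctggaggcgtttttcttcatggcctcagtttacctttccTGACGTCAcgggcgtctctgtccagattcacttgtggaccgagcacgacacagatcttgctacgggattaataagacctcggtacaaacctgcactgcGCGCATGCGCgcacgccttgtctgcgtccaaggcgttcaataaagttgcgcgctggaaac
Uqcr11 (chr10:80406822-80407071, minus strand): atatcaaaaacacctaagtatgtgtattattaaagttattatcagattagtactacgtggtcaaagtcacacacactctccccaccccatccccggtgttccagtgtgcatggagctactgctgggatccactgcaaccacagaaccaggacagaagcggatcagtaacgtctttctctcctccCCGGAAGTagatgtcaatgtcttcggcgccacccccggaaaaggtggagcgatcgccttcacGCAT

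The members were expressed at very different levels, and the ranking was led by complexes IV and V. Levels were compared per 1000 bases of the principal transcript (GENCODE M21), as means over the 18 libraries. Cox4i1, the ubiquitous isoform of complex IV subunit 4 (ENSMUSG00000031818, chromosome 8, 120668222 to 120674207, plus strand, mm10), led at 966. It was followed by Cox7a2l at 772, reported as a factor that joins complexes III and IV into supercomplexes. Uqcrh, the hinge protein of complex III, stood at 651, and Atp5b, the catalytic beta subunit of the ATP synthase, at 508. Class medians per 1000 bases were 207 for complex V, 189.9 for complex IV, 112 for complex III, 78.1 for complex I, 75.2 for complex II and 10.03 for the complex I assembly factors. All 6 assembly factors (6.37 to 12.3) lay below every complex III, IV and V subunit and near the lowest of complex I, Ndufb4 at 9.84 and Ndufab1, the mitochondrial acyl carrier protein, at 10.9. Within complex II, Sdhb, the iron-sulfur subunit, stood at 120.1, the flavoprotein Sdha at 94.8, and the membrane anchors Sdhd at 55.6 and Sdhc at 13.4. The transcript chosen matters for some genes: with the shortest principal transcript Atp5g1 moved from 21.6 to 171, Ndufb2 from 19.98 to 192, Uqcrq from 32.7 to 123 and Ndufc1 from 24.9 to 98.8.

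**Figure D1:**
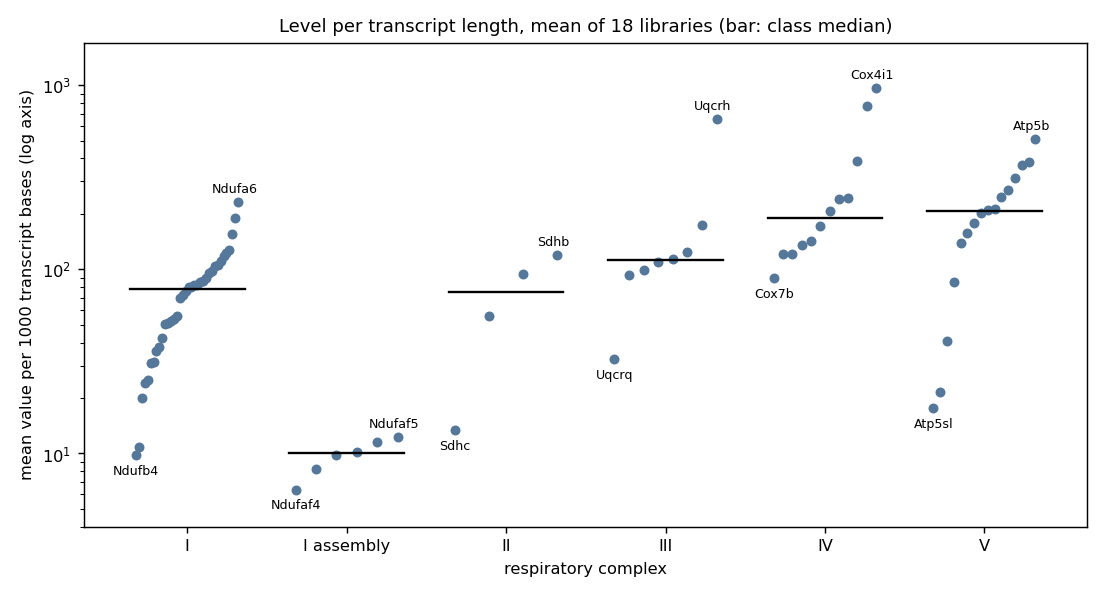
Level of each of the 82 members per 1000 transcript bases (log axis, mean of 18 libraries) by respiratory complex, with the class median as a bar and the highest and lowest gene of each class named. The 6 assembly factors lie between 6.37 and 12.3, while complexes IV and V have medians of 189.9 and 207.

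Of each pair of tissue isoforms, the ubiquitous form was present and the form of muscle, testis or other specialized tissue was near absent. Cox4i2, Cox7b2, Cox8b, Cox8c and Ndufa4l2 were listed at 0 in all 18 libraries. Cox6a2 and Cox7a1, the heart and muscle forms, were above 0 in 1 library each, with means of 0.049 and 0.047 and highest values of 0.885 and 0.851. Cox6b2, a testis form, was above 0 in 6 libraries with a mean of 0.476. Their partners Cox4i1, Cox6a1, Cox6b1, Cox7a2, Cox7b, Cox8a and Ndufa4 were all members. The remaining genes below the minimum were Atp5s, a coupling factor (mean 2.54, highest value 8.88), and the complex I assembly factor Ndufaf2 (mean 6.13, highest value 10.2). Just inside the minimum were Ndufaf6 (mean 8.86) and Ndufb4 (mean 9.55).

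For 10 members another gene shares at least 30% of the 31-base words of the principal transcript, so reads could be split between copies. The copies held 171% of the member's own value for Ndufb4 (Gm3244), 58.7% for Atp5g2 (mostly Gm10175), and 11.7% each for Cox5b (Gm11273) and Cox7c, whose values are therefore uncertain, and under 2% for the other 6. Smartseq2 does not mark strand, and 26 members overlap an exon of a gene on the opposite strand. In 7 of them that gene's mean value was at least 50% of the member's. Among these were Ndufs1 beside Eef1b2 (4125 against 64.1), Ndufaf3 beside Impdh2 (214 against 17.2), Cox6c beside Vps13b (230.1 against 127) and Ndufs6 beside Mrpl36 (72.1 against 28.5).

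No member passed the test in any comparison (adjusted p under 0.05 over 9437 genes, limma on log2(value + 1)), and none did with voom weights. Between wild-type memory and naive cells 0 of 82 members were called, against 2.52% of all tested genes. At an unadjusted p under 0.05 there was 1, which was lower (1.22% of members, against 5.29% of genes lower), and 1 with voom weights. In this comparison 0 of 82 members had groups that did not overlap, against 8.27% of genes. Between Dock2-deficient memory and naive cells 0 were called, against 2.82%, with 7 at an unadjusted p under 0.05, all higher (8.54% of members, against 6.96% of genes higher), and 8 with voom weights. Between genotypes in naive cells 0 were called, against 0.138%, with 1 at an unadjusted p under 0.05 (against 3.14% of genes higher) and 1 with voom weights. Between genotypes in memory cells 0 were called, against 0.053%, with 25 at an unadjusted p under 0.05, all higher in Dock2-deficient cells (30.5% of members, against 7.92% of genes higher), 26 with voom weights and 4 with the length covariate described below. In the test of the difference between these differences 0 were called, against 0.0318%, with 2 at an unadjusted p under 0.05 (against 2.17% of genes higher) and 2 with voom weights. The shares of all genes are those of this fit. For the alternatives, here and below, the share of all genes at an unadjusted p under 0.05 was not counted.

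Most members had the same sign in the comparison with the largest median. In Dock2-deficient against wild-type memory cells 78 of 82 members had a log2 fold change above 0, and their median was 0.46, against 0.01 over all tested genes, of which 50.9% were above 0. Class medians lay close together, at 0.45 for complex I, 0.52 for its assembly factors, 0.46 for complex II, 0.52 for complex III, 0.47 for complex IV and 0.47 for complex V. The 4 members not above 0 were Ndufb2, Ndufb5, Uqcr11 and Atp5sl. For 2 of them wild-type memory library 4, which stood apart, was high. Ndufb5 was at 215.7 there and at most 115.2 in the other wild-type memory libraries, and Uqcr11 at 61.2 and at most 45.1. In Dock2-deficient memory against naive cells the median was 0.22 (62 of 82 above 0), with 0.05 for complex I and 0.24 to 0.32 for the other classes. Between genotypes in naive cells it was 0.18 (70 of 82 above 0), and in wild-type memory against naive cells -0.05 (37 of 82 above 0). The comparisons share groups of libraries, so these values are not independent of one another. Without Dock2-deficient memory library 5 the median in memory cells was 0.34 and 8 members had an unadjusted p under 0.05, and in Dock2-deficient memory against naive cells the median was 0.08 with 2 such members.

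**Figure D2:**
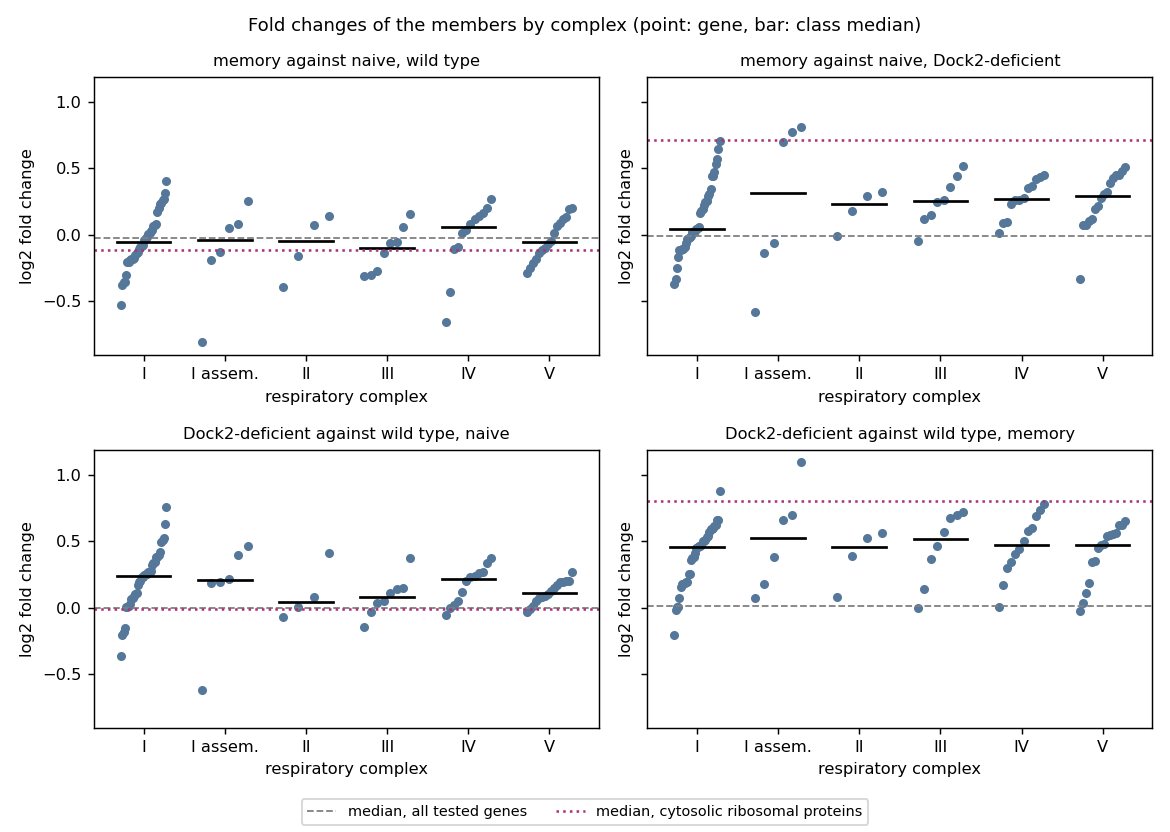
Fitted log2 fold changes of the 82 members (points) by respiratory complex in 4 comparisons, with the class median as a black bar, the median of all 9437 tested genes dashed and that of 82 cytosolic ribosomal protein genes dotted. In the lower right panel, Dock2-deficient against wild-type memory cells, 78 of 82 points lie above 0.

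The library medians show how far single libraries carry this. The median log2(value + 1) of the members was 5.93, 6.14, 6.51 and 6.47 among naive and 6.30, 6.12, 6.21 and 6.44 among memory libraries of the wild type. It was 6.36, 6.46, 6.29, 6.75 and 6.49 among naive and 6.43, 6.51, 6.67, 6.29 and 7.01 among memory libraries deficient in Dock2. The groups overlapped in every comparison: Dock2-deficient memory libraries 1 and 4 lay within the range of the wild-type memory libraries, and library 5 lay above all others. Wild-type naive library 1 was the lowest of the 18. Library 1 of the Dock2-deficient memory group, the only one of that group with Xist RNA, stood at 6.43, and a comparison within that class of libraries would rest on 1 library. In complexes II, III and IV only library 1 of the Dock2-deficient memory group overlapped the wild-type memory libraries. In complex II the medians of the Dock2-deficient memory libraries were 6.58, 6.77, 6.68, 6.75 and 7.55, and those of the wild-type memory libraries 6.44, 6.24, 6.27 and 6.66. Library 1 stood at 6.45 in complex III and 6.79 in complex IV, where the highest wild-type memory libraries stood at 6.54 and 6.94.

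**Figure D3:**
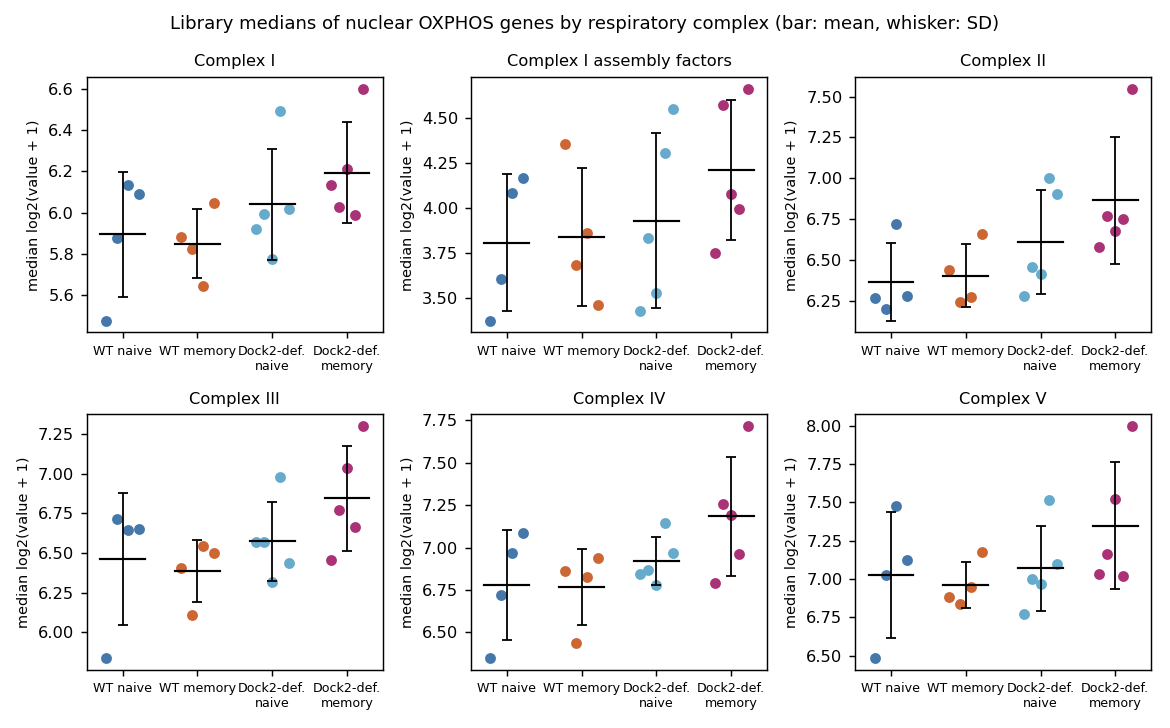
Median log2(value + 1) of each complex's members in every library (points) by group, with the group mean as a bar and the SD as whiskers (n = 4, 4, 5 and 5); axes differ between panels and do not start at 0. Dock2-deficient memory library 5 is the highest point in each panel, and groups overlap in each.

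In complex I the core subunits, which carry the flavin, the iron-sulfur clusters and the ubiquinone site, numbered 7 among the members, and their values differed little between cell states. Their median log2 fold change was -0.04 in wild-type and 0.02 in Dock2-deficient memory against naive cells. Between genotypes all 7 were above 0 in both states, with medians of 0.19 in naive and 0.41 in memory cells. Ndufv1, the subunit that binds NADH and FMN (ENSMUSG00000037916, chromosome 19, 4007384 to 4012806, minus strand, mm10), had the smallest p of all members in naive cells. Ndufv1 was at 47.4, 77.8, 86.6 and 59.8 among naive and at 87.9, 62.3, 85.1 and 39.3 among memory libraries of the wild type. It was at 89.1, 120.3, 112, 97.1 and 99.6 among naive and at 101, 83.98, 107, 52.8 and 164 among memory libraries deficient in Dock2. All 5 Dock2-deficient naive libraries lay above the 4 wild-type naive libraries, whereas the memory groups overlapped widely. The log2 fold change between naive groups was 0.63 ± 0.29 (SE), adjusted p = 0.782 from limma. Ndufv1 and Cox5b were the only members whose naive groups did not overlap, 2 of 82 (2.44%), against 1.46% of genes higher in this way.

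The 29 accessory subunits of complex I, which surround the core and are needed for its assembly and stability, spread more widely. In Dock2-deficient against wild-type memory cells 27 of 29 were above 0, with a median of 0.45, from Ndufb2 at -0.20 to Ndufc1 at 0.88. In Dock2-deficient memory against naive cells 18 were above 0, with a median of 0.06. Ndufc1, a small membrane subunit and a carrier of the YY1 letters shown above (ENSMUSG00000037152, chromosome 3, 51404677 to 51408988, minus strand, mm10), stood out in 3 of the comparisons. Ndufc1 was at 25.4, 38.1, 29.5 and 26.7 among naive and at 19.2, 21.5, 18.2 and 34.1 among memory libraries of the wild type. It was at 29.6, 20.8, 25.6, 35.9 and 19.02 among naive and at 33.8, 42.03, 43.7, 34.9 and 61.9 among memory libraries deficient in Dock2. The Dock2-deficient memory libraries (33.8 to 61.9) lay above all but the highest library of the wild-type memory and the Dock2-deficient naive groups. Its log2 fold change was 0.71 ± 0.26 (SE) against Dock2-deficient naive cells (adjusted p = 0.207 from limma) and 0.88 ± 0.28 (SE) against wild-type memory cells (adjusted p = 0.231). The difference between the memory-naive differences of the genotypes was 1.08 ± 0.39 (SE) (adjusted p = 0.819), the largest value of any member. The library with the highest Ndufc1 value was again Dock2-deficient memory library 5.

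Ndufa5, a subunit of the peripheral arm, had a high value in most Dock2-deficient memory libraries. Ndufa5 was at 22.6, 37.97, 40.5 and 40.7 among naive and at 36.5, 27.7, 30.9 and 26.2 among memory libraries of the wild type. It was at 30.01, 28.5, 22.02, 43.3 and 30.9 among naive and at 23.1, 61.7, 55.00, 57.03 and 56.6 among memory libraries deficient in Dock2. Of the Dock2-deficient memory libraries 4 lay between 55.00 and 61.7 and library 1 at 23.1, below the wild-type memory libraries and inside the range of both naive groups. The difference of differences was 0.84 ± 0.42 (SE), adjusted p = 0.819 from limma. Ndufb10, another accessory subunit, had the smallest p of complex I between wild-type memory and naive cells. Ndufb10 was at 74.9, 94.02, 106 and 99.4 among naive and at 58.03, 67.4, 79.9 and 88.3 among memory libraries of the wild type. It was at 107, 109, 80.9, 93.04 and 84.6 among naive and at 85.2, 104, 105, 77.5 and 97.3 among memory libraries deficient in Dock2. The wild-type memory libraries were low, and the highest of them, 88.3, lay above the lowest wild-type naive library, 74.9. limma gave a log2 fold change of -0.35 ± 0.20 (SE) (adjusted p = 0.540).

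In memory cells Ndufa1, Ndufb6 and Ndufb9, all membrane-arm subunits, did not overlap between genotypes. Ndufa1, which is X-linked like Cox7b and Ndufb11, ran from 39.04 to 50.3 in wild-type and from 50.6 to 95.5 in Dock2-deficient memory libraries, Ndufb6 from 30.3 to 44.8 and from 53.9 to 64.7, and Ndufb9 from 58.6 to 74.8 and from 78.3 to 149. Their log2 fold changes were 0.59 ± 0.23 (SE), 0.62 ± 0.25 (SE) and 0.60 ± 0.24 (SE). In all, 9 of 82 members (10.98%) were higher without overlap in Dock2-deficient memory cells and none lower, against 2.06% of genes higher and 2.38% lower. The other 6 were Uqcrb, Uqcrh, Cox4i1, Cox6b1, Atp5e and Atp5h. Without Dock2-deficient memory library 5 there were 10 such members, against 2.31% of genes, and without wild-type memory library 4 as well 23, against 3.87%.

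The 6 assembly factors of complex I, chaperones and enzymes that build it and leave, had the lowest levels of the classes. Ndufaf5, which modifies a core subunit, had the largest log2 fold change of any member between genotypes in memory cells. Ndufaf5 was at 5.51, 10.8, 13.97 and 13.6 among naive and at 9.12, 7.56, 12.9 and 8.74 among memory libraries of the wild type. It was at 11.8, 12.9, 7.68, 20.9 and 9.96 among naive and at 12.4, 28.4, 25.8, 15.3 and 30.1 among memory libraries deficient in Dock2. Of the Dock2-deficient memory libraries 3 lay between 25.8 and 30.1, and libraries 1 and 4, at 12.4 and 15.3, lay close to the wild-type memory libraries. limma gave a log2 fold change of 1.09 ± 0.39 (SE) (adjusted p = 0.248). Ndufaf4 led the class by p in Dock2-deficient memory against naive cells and between genotypes in naive cells. Ndufaf4 was at 18.2, 23.5, 23.8 and 32.7 among naive and at 29.01, 23.3, 15.5 and 18.4 among memory libraries of the wild type. It was at 6.36, 11.5, 14.3, 34.5 and 21.9 among naive and at 33.7, 35.8, 17.2, 35.8 and 21.2 among memory libraries deficient in Dock2. The Dock2-deficient naive libraries ran from the lowest value of the 18 to near the highest, and all groups overlapped. In Dock2-deficient memory against naive cells its log2 fold change was 0.81 ± 0.37 (SE) (adjusted p = 0.342 from limma), and between naive groups -0.62 ± 0.39 (SE) (adjusted p = 0.920). Ndufaf6 had the smallest p of the class between wild-type memory and naive cells. Ndufaf6 was at 9.91, 5.42, 8.38 and 10.2 among naive and at 12.4, 5.67, 7.73 and 0 among memory libraries of the wild type. It was at 12.7, 10.9, 10.2, 16.04 and 9.96 among naive and at 10.7, 4.94, 5.16, 7.66 and 11.5 among memory libraries deficient in Dock2. With a 0 in wild-type memory library 4 and values of 4.94 to 16.04 elsewhere, the groups overlapped throughout (-0.81 ± 0.61 (SE), adjusted p = 0.676 from limma).

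In complex II, succinate dehydrogenase, which is also an enzyme of the citric acid cycle, the fold changes of the 4 subunits differed. Sdha, the flavoprotein, was at 195, 331, 347 and 290.2 among naive and at 206, 208, 218 and 233 among memory libraries of the wild type. It was at 302.8, 263, 217, 328 and 332 among naive and at 209, 291, 319.7, 206 and 452 among memory libraries deficient in Dock2. No wild-type memory library exceeded 233, whereas every other group held at least 3 libraries of 263 or more. In wild-type memory against naive cells its log2 fold change was -0.39 ± 0.24 (SE) (adjusted p = 0.575 from limma), and it was 0.39 ± 0.23 (SE) between genotypes in memory cells (adjusted p = 0.385). Sdhb, the iron-sulfur subunit, was at 96.9, 137, 162 and 106 among naive and at 107, 87.5, 119 and 132 among memory libraries of the wild type. It was at 101, 113, 113, 169 and 170.3 among naive and at 117, 157, 149.5, 146 and 286 among memory libraries deficient in Dock2. Library 5 of the Dock2-deficient memory group, at 286, stood far above its companions, of which only library 1 lay within the wild-type memory range. Between memory groups the log2 fold change was 0.56 ± 0.25 (SE) (adjusted p = 0.292 from limma).

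Of the membrane anchors, Sdhd was above 0 in log2 fold change in all 4 comparisons of groups and Sdhc near 0 between genotypes, in memory cells with 1 high wild-type library. Sdhd was at 59.5, 37.97, 67.1 and 55.3 among naive and at 68.8, 63.6, 48.99 and 48.1 among memory libraries of the wild type. It was at 58.2, 66.6, 62.98, 95.4 and 82.6 among naive and at 76.3, 74.1, 68.7, 77.5 and 121 among memory libraries deficient in Dock2. Of the Dock2-deficient memory libraries only library 3, at 68.7, lay within the wild-type memory range, next to its highest value of 68.8. Between memory groups the log2 fold change was 0.52 ± 0.23 (SE) (adjusted p = 0.292 from limma). Sdhc was at 45.3, 36.2, 36.8 and 40.7 among naive and at 34.01, 39.7, 35.3 and 76.05 among memory libraries of the wild type. It was at 41.01, 33.97, 41.3, 36.9 and 35.2 among naive and at 43.3, 52.1, 39.9, 48.5 and 47.8 among memory libraries deficient in Dock2. All groups overlapped, the memory groups only through wild-type memory library 4, which held the highest value, 76.05. Wild-type memory libraries 1 to 3 (34.01 to 39.7) lay below every Dock2-deficient memory library (39.9 to 52.1), so the value near 0 rests on library 4. Between memory groups the log2 fold change was 0.08 ± 0.24 (SE) (adjusted p = 0.888). Promoter letters for NRF1 were found in Sdhb, as shown above.

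**Figure D4:**
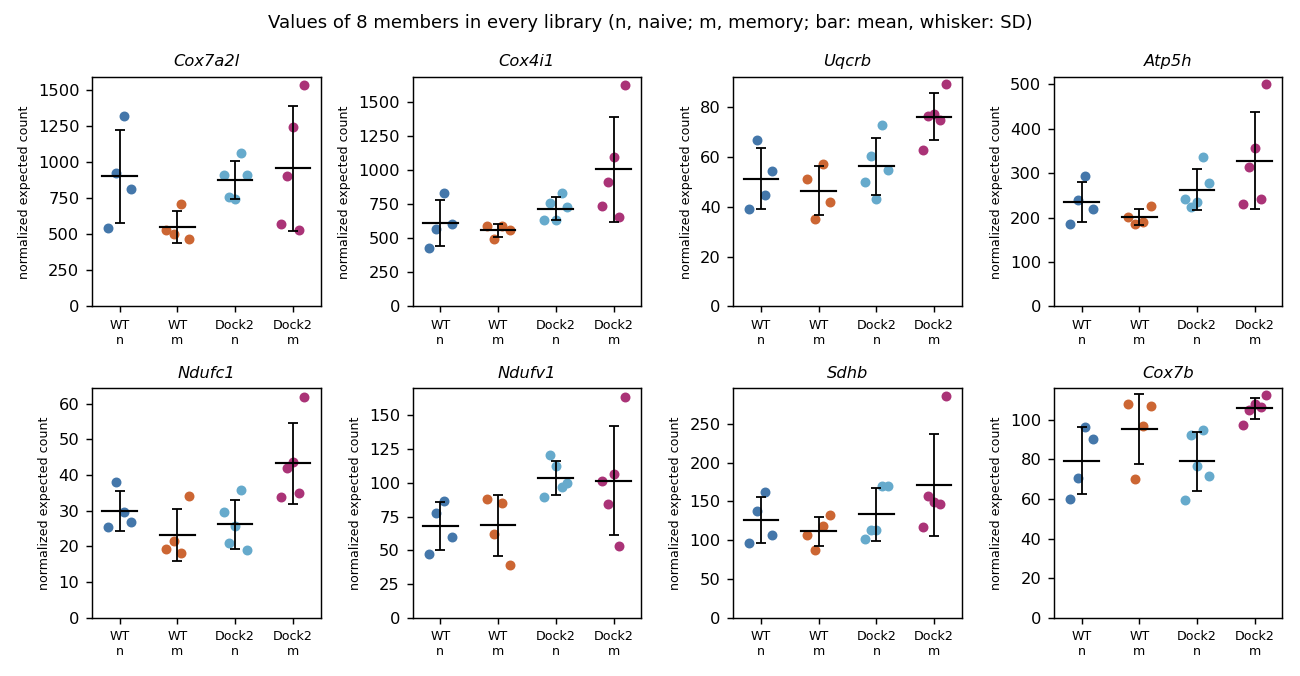
Normalized expected counts of 8 members in every library (points), by group (n, naive; m, memory), with means as bars and SDs as whiskers (n = 4, 4, 5 and 5); every axis starts at 0. For Cox4i1, Uqcrb and Atp5h all 5 Dock2-deficient memory libraries lie above the 4 wild-type memory libraries, and for Ndufv1 the same holds among naive libraries.

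In complex III, which hands electrons from ubiquinol to cytochrome c, 7 of 8 members were above 0 between genotypes in memory cells, with a median of 0.52. Uqcrb, a small subunit near the ubiquinone site (ENSMUSG00000021520, chromosome 13, 66900617 to 66905378, minus strand, mm10), led by p. Uqcrb was at 39.1, 66.9, 44.7 and 54.2 among naive and at 51.3, 35.3, 57.3 and 41.96 among memory libraries of the wild type. It was at 50.01, 60.5, 43.01, 72.99 and 54.8 among naive and at 62.96, 76.6, 77.3, 74.9 and 89.3 among memory libraries deficient in Dock2. All 5 Dock2-deficient memory libraries lay above the wild-type memory libraries, and here library 5 (89.3) was not far from the others (62.96 to 77.3). The log2 fold change was 0.72 ± 0.23 (SE), adjusted p = 0.231 from limma. Uqcrh, the hinge protein, was also without overlap, with 239 to 286 in wild-type and 293 to 725 in Dock2-deficient memory libraries (0.69 ± 0.27 (SE)). Uqcr10, another small subunit, was at 34.1, 41.6, 58.7 and 62.1 among naive and at 45.6, 38.4, 43.8 and 27.97 among memory libraries of the wild type. It was at 40.01, 46.2, 34.3, 65.8 and 34.9 among naive and at 56.8, 44.5, 79.1, 51.1 and 88.5 among memory libraries deficient in Dock2. It had the second smallest p in the difference of differences, 0.83 ± 0.39 (SE), adjusted p = 0.819 from limma, and its naive groups overlapped fully.

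The Rieske iron-sulfur protein Uqcrfs1 had the smallest p of complex III between wild-type memory and naive cells. Uqcrfs1 was at 136, 161, 166 and 184 among naive and at 136, 119.6, 148 and 130.2 among memory libraries of the wild type. It was at 178, 168, 143, 214 and 133 among naive and at 218, 153, 247, 134 and 274 among memory libraries deficient in Dock2. Wild-type memory libraries (119.6 to 148) lay low and overlapped wild-type naive library 1 (-0.27 ± 0.23 (SE), adjusted p = 0.718 from limma). Between memory groups only Dock2-deficient library 4, at 134, fell in the wild-type range, and the log2 fold change was 0.57 ± 0.21 (SE) (adjusted p = 0.259). Uqcrc2, a core protein of the complex, led the class in naive cells. Uqcrc2 was at 80.4, 161, 186 and 159 among naive and at 148, 168, 151 and 158 among memory libraries of the wild type. It was at 175, 146, 159.7, 268 and 177 among naive and at 119, 216, 215, 191 and 310.5 among memory libraries deficient in Dock2. The naive groups overlapped, with wild-type naive library 1 at 80.4 well below the other 3 (0.37 ± 0.26 (SE), adjusted p = 0.947 from limma).

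In complex IV, cytochrome c oxidase, all 12 members were above 0 between genotypes in memory cells (median 0.47) and in Dock2-deficient memory against naive cells (median 0.27). Cox4i1 had the smallest p of all members between memory groups. Cox4i1 was at 428, 571, 834 and 608 among naive and at 591, 493.4, 592 and 558 among memory libraries of the wild type. It was at 636, 763, 638, 833 and 727 among naive and at 740.2, 913, 1099.9, 658 and 1625 among memory libraries deficient in Dock2. Every Dock2-deficient memory library lay above every wild-type memory library (658 against 592 at the nearest), with library 5 at 1625. The log2 fold change was 0.78 ± 0.23 (SE), adjusted p = 0.228 from limma. Cox6b1, an intermembrane-space subunit, was at 44.05, 77.8, 86.6 and 81.3 among naive and at 75.4, 58.6, 63.2 and 64.7 among memory libraries of the wild type. It was at 79.1, 85.6, 81.4, 113 and 101 among naive and at 92.3, 101, 101, 86.8 and 188 among memory libraries deficient in Dock2. It too was without overlap between memory groups, at 0.74 ± 0.24 (SE) (adjusted p = 0.238). Cox7b, an X-linked subunit, was the only member without overlap between Dock2-deficient memory and naive cells, 1 of 82 (1.22%), against 2.35% of genes higher in this way. Cox7b was at 60.02, 70.5, 96.4 and 90.3 among naive and at 108, 69.9, 96.7 and 107 among memory libraries of the wild type. It was at 59.3, 92.4, 76.8, 94.6 and 71.7 among naive and at 97.6, 105, 108, 106 and 112 among memory libraries deficient in Dock2. The 5 memory libraries were close together (97.6 to 112) and above the naive libraries, the highest of which was 94.6 (0.44 ± 0.19 (SE), adjusted p = 0.325 from limma).

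Cox7a2l, reported to tether complex III to complex IV (ENSMUSG00000024248, chromosome 17, 83501918 to 83517330, minus strand, mm10), was the only member with an unadjusted p under 0.05 between wild-type memory and naive cells, where it was lower. Its allele and protein in these mice were not examined, and its RNA says nothing of supercomplexes. Cox7a2l was at 544, 922, 1318 and 813 among naive and at 525.6, 504, 710.3 and 465 among memory libraries of the wild type. It was at 909, 759, 742, 1059 and 908 among naive and at 572, 902, 1243, 529 and 1533 among memory libraries deficient in Dock2. Only the lowest wild-type naive library, number 1, lay within the range of the memory libraries. The means were 899.5 ± 321 and 551 ± 109 (SD, n = 4 each), and the log2 fold change was -0.65 ± 0.31 (SE), adjusted p = 0.400 from limma. In Dock2-deficient cells it was 0.02 ± 0.27 (SE), with memory libraries spread from 529 to 1533, and the difference of differences was 0.67 ± 0.41 (SE) (adjusted p = 0.819). With a measure of transcript length in each library as a covariate, chosen after seeing the data and described below, Cox7a2l was the only member called, at -0.64 with an adjusted p of 0.00635 from limma in wild-type memory against naive cells. The share of all tested genes called with the covariate is not given here, so this call cannot be set against it.

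For the other complex IV genes named here the memory groups overlapped. Cox6a1 was at 93.1, 108, 154 and 126 among naive and at 82.9, 81.2, 85.1 and 103 among memory libraries of the wild type. It was at 111, 132, 109.6, 132 and 130.4 among naive and at 115, 117, 137, 89.4 and 233 among memory libraries deficient in Dock2. Wild-type memory libraries were low, with a log2 fold change of -0.43 ± 0.24 (SE) against naive cells (adjusted p = 0.531 from limma) and 0.58 ± 0.23 (SE) between memory groups. Cox8a was at 117, 172, 233 and 184 among naive and at 199, 148, 186 and 163 among memory libraries of the wild type. It was at 196, 187, 184, 245 and 223 among naive and at 199, 237, 325, 174 and 472 among memory libraries deficient in Dock2. Its memory groups overlapped through Dock2-deficient libraries 1 and 4 (0.60 ± 0.25 (SE), adjusted p = 0.281). Cox7a2 was at 67.7, 68.7, 89.4 and 91.5 among naive and at 72.95, 60.5, 91.5 and 104 among memory libraries of the wild type. It was at 88.2, 86.96, 87.04, 116 and 89.6 among naive and at 79.9, 90.2, 99.7, 102 and 130.03 among memory libraries deficient in Dock2. All groups overlapped, with 0.30 ± 0.21 (SE) between memory groups. Ndufa4 was at 81.5, 145, 116 and 159 among naive and at 135, 113, 137 and 166 among memory libraries of the wild type. It was at 117, 120.3, 123, 231 and 148 among naive and at 117, 216, 153, 155 and 260.1 among memory libraries deficient in Dock2. Dock2-deficient memory libraries 1, 3 and 4 lay inside the wild-type range (0.34 ± 0.26 (SE)). Cox5b was at 80.6, 83.03, 84.2 and 88.7 among naive and at 89.1, 78.4, 80.8 and 125 among memory libraries of the wild type. It was at 105, 108, 90.1, 111 and 118 among naive and at 104, 129.98, 138, 94.5 and 169 among memory libraries deficient in Dock2. The wild-type naive libraries were within 80.6 to 88.7 and all Dock2-deficient naive libraries above them, from 90.1 up, and the log2 fold change was 0.33 ± 0.20 (SE), adjusted p = 0.909 from limma. Its reads cannot all be told apart from those of the copy named above.

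In complex V the catalytic head and central stalk (Atp5a1, Atp5b, Atp5c1, Atp5d and Atp5e) had fold changes close to one another. Their log2 fold changes between memory groups ran from 0.47 to 0.62, those in Dock2-deficient memory against naive cells from 0.22 to 0.45, and 4 of 5 were below 0 in wild-type memory against naive cells. Atp5b averaged 825 ± 139 in wild-type memory (SD, n = 4) and 1182 ± 422 in Dock2-deficient memory libraries (SD, n = 5), at 0.47 ± 0.22 (SE). In the peripheral stalk, which holds the head still, Atp5h (ENSMUSG00000034566, chromosome 11, 115415689 to 115419962, minus strand, mm10) had the smallest p of the complex. Atp5h was at 187, 240.5, 293 and 219 among naive and at 202, 186, 189 and 226 among memory libraries of the wild type. It was at 243, 225, 235, 336 and 278 among naive and at 231, 314, 356, 241 and 501 among memory libraries deficient in Dock2. The lowest Dock2-deficient memory library, 231, lay just above the highest wild-type memory library, 226, and libraries 2, 3 and 5 lay far above. The log2 fold change was 0.65 ± 0.22 (SE), adjusted p = 0.238 from limma. Its promoter window holds ETS letters, as do those of Uqcrh, Cox8a, Ndufs3 and Uqcr11. The memory groups of Cox8a, Ndufs3 and Uqcr11 overlapped. Capitals mark the letters in Atp5h and Uqcrh.
Atp5h (chr11:115419941-115419968, minus strand, position -39): caaggagagaACTTCCGGcaactctctt
Uqcrh (chr4:116075064-116075091, minus strand, position -11): agtatgccgcACTTCCGGccaggtcgcc

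The other stalk subunits were less separated. Atp5f1 was at 219.8, 253, 373 and 266 among naive and at 255, 266, 329 and 315 among memory libraries of the wild type. It was at 271, 298.9, 264, 427 and 321 among naive and at 307.1, 402, 486, 288 and 817 among memory libraries deficient in Dock2. Its memory groups overlapped through libraries 1 and 4 of the Dock2-deficient group (0.56 ± 0.26 (SE), adjusted p = 0.295 from limma). Against Dock2-deficient naive cells the log2 fold change was 0.45 ± 0.24 (SE) (adjusted p = 0.436), the smallest p of the complex there. Atp5o, the subunit that confers oligomycin sensitivity, was at 80.4, 139.8, 168 and 128 among naive and at 94.5, 111, 116 and 89.2 among memory libraries of the wild type. It was at 99.1, 133, 119.8, 163 and 140.4 among naive and at 112, 126, 183, 107 and 261 among memory libraries deficient in Dock2. Its groups overlapped in every comparison, at -0.29 ± 0.27 (SE) in wild-type memory against naive cells and 0.54 ± 0.26 (SE) between memory groups.

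The c subunit of the membrane ring is encoded by Atp5g1, Atp5g2 and Atp5g3, which give the same mature protein. Atp5g1 was at 60.2, 89.9, 81.9 and 124 among naive and at 114, 87.01, 97.4 and 99.9 among memory libraries of the wild type. It was at 91.1, 84.5, 101, 113 and 109 among naive and at 80.6, 88.5, 151, 65.8 and 194 among memory libraries deficient in Dock2. Its memory groups gave a log2 fold change of 0.11 ± 0.27 (SE), and Dock2-deficient libraries lay on either side of the wild-type range. Atp5g2 was at 98.4, 119.8, 187 and 101 among naive and at 121, 116, 129.8 and 209 among memory libraries of the wild type. It was at 119, 117, 146, 176 and 128 among naive and at 179, 160.2, 176, 143 and 248 among memory libraries deficient in Dock2. The corresponding value was 0.35 ± 0.23 (SE), with copies of the gene adding uncertainty. Atp5g3 was at 84.8, 116, 119 and 150.2 among naive and at 106, 109, 91.5 and 135 among memory libraries of the wild type. It was at 104, 122, 129, 188 and 131 among naive and at 81.7, 117, 182, 126 and 238 among memory libraries deficient in Dock2. Here it was 0.35 ± 0.27 (SE), and libraries 3 and 5 were high. All 3 genes overlapped between groups in every comparison. Atp5sl, which is not a subunit of the synthase in spite of its symbol, did not share the pattern. Atp5sl was at 49.6, 36.2, 51.7 and 27.1 among naive and at 46.4, 28.97, 38.7 and 42.8 among memory libraries of the wild type. It was at 41.8, 60.5, 54.3, 40.9 and 45.8 among naive and at 37.3, 41.99, 34.4, 35.8 and 40.7 among memory libraries deficient in Dock2. The memory groups had nearly equal means, 39.2 ± 7.54 (SD, n = 4) and 38.02 ± 3.24 (SD, n = 5), and the log2 fold change was -0.03 ± 0.24 (SE).

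Other genes of the pathway were read from lists chosen by function or symbol. In Dock2-deficient against wild-type memory cells no gene of these lists was called. The median was 0.40 over 11 genes of electron carriers and their synthesis (Cyc1, cytochrome c1, 0.53 ± 0.27 (SE)), 0.40 over 38 further assembly factors, 0.34 over 15 citric acid cycle genes, 0.23 over 15 of fatty acid oxidation, 0.13 over 12 of pyruvate entry and -0.12 over 20 regulators of mitochondrial biogenesis. The 78 genes of mitochondrial ribosomal proteins had a median of 0.28 and the 12 mitochondrially encoded subunits 0.18. In 82 genes of cytosolic ribosomal proteins, which have no part in respiration, it was 0.80, larger than in any class of the members, with 58 of 82 at an unadjusted p under 0.05. The same genes had medians of 0.71 in Dock2-deficient memory against naive cells, -0.01 between naive groups and -0.11 in wild-type memory against naive cells. Across the lists and the 4 comparisons of groups, 1 gene passed the test: Pdk1, a kinase that inhibits pyruvate dehydrogenase, was lower in wild-type memory than naive cells (-0.85 ± 0.22 (SE), adjusted p = 0.042 from limma).

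Fold changes also went with transcript length. Most members have short transcripts (median 963 bases, 371 to 4715). Among the other tested genes the median log2 fold change between memory groups was 0.42 for transcripts up to 750 bases (437 genes), 0.28 for 750 to 1500 (1212 genes), 0.10 for 1500 to 3000 (3146 genes) and -0.20 above 3000 (4537 genes). The members of the same lengths had medians of 0.54 (32 members), 0.44 (29), 0.46 (16) and 0.11 (5). In Dock2-deficient memory against naive cells the other genes gave 0.29, 0.14, 0.06 and -0.14 and the members 0.27, 0.12, 0.16 and 0.29. Up to 3000 bases the members were thus close to other genes of their length in the latter comparison, and between memory groups they were above them in each length class. The class of some members depends on the transcript chosen. With the shortest principal transcript Atp5g1 would move from 4715 to 596 bases, Ndufb2 from 4371 to 455 and Uqcrq from 1521 to 405. The medians were not recomputed with these lengths. The classes above 1500 bases hold few members, and how far length accounts for the difference between memory groups was not tested beyond the covariate given below.

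The same was seen library by library, over 18 libraries that share the 4 groups. As an index of length, the median deviation of other genes with transcripts over 3000 bases was subtracted from that of genes up to 750 bases. It was highest in Dock2-deficient memory library 5 (1.18), where the members' median deviation was also highest (0.73), and lowest in wild-type naive library 1 (-0.94), where the members' was lowest (-0.51). Dock2-deficient memory libraries 1 to 4 had an index of -0.07, 0.44, 0.82 and -0.36 and member medians of 0.04, 0.21, 0.33 and -0.07. With the index as a covariate the median of the members was 0.13 between memory groups and -0.04 in Dock2-deficient memory against naive cells, and that of the difference of differences was 0.01, against 0.23 without it.

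**Figure D5:**
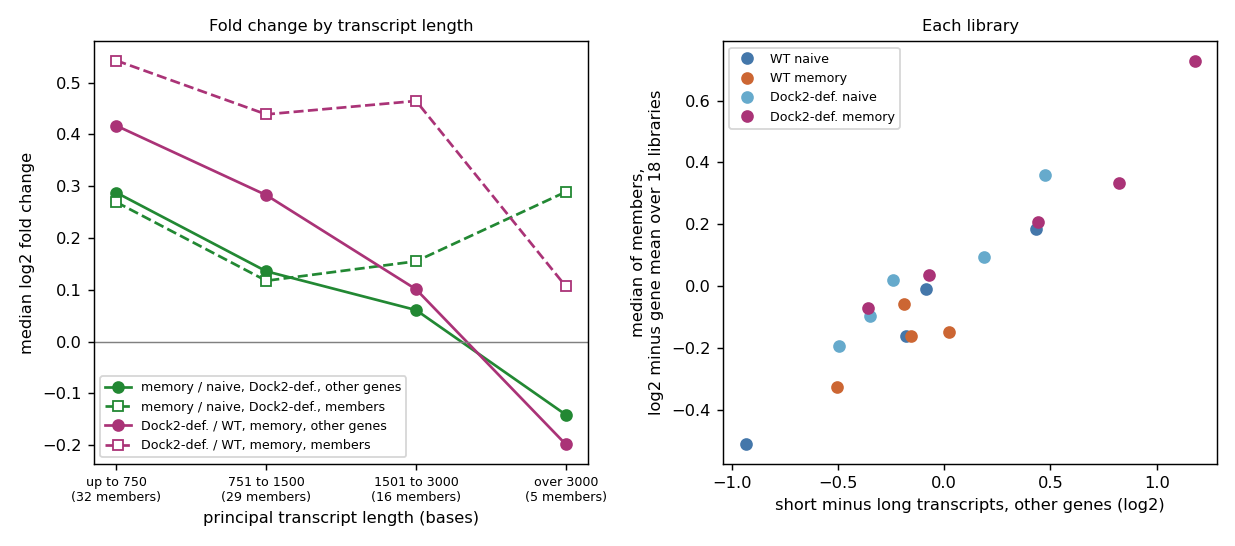
Left, median log2 fold change by length of the principal transcript in bases, for other tested genes (filled circles) and members (open squares, their number under each bin), in 2 comparisons. Right, each library's median of the members against its length index, both on the log2 scale; Dock2-deficient memory library 5 lies at the upper right (1.18, 0.73) and wild-type naive library 1 at the lower left (-0.94, -0.51).

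Within groups most members went up and down together. Over all 3321 pairs the median Pearson correlation of deviations from the group means was 0.488 across the 18 libraries, and 92.0% of pairs were above 0. Pairs in the same complex (median 0.461) were no closer than pairs in different complexes (0.498). These correlations describe genes measured in the same libraries and have no p-value. Pairs of other tested genes were not examined, so whether the members differ from them in this was not tested. Genes outside the pathway went with them: the median log2(value + 1) of the 82 cytosolic ribosomal protein genes was highest in Dock2-deficient memory library 5 (12.4) and lowest in wild-type naive library 1 (10.2), the libraries where the members' median was highest and lowest. The share of Rn18s-rs5 in those libraries was 37.0% and 65.2%. It was highest, at 69.4%, in wild-type memory library 4, where the members' median was 6.44, the highest of its group. For deviations from the group means, the members' median had a Pearson correlation of 0.888 with the ribosomal protein median. With the share of Rn18s-rs5 it was -0.768. The part of either measure in the members' values was not tested.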

How the data were processed

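Per the labels' protocols, RNA came from the Qiagen RNAeasy kit and the library method was Smartseq2. The build was mm10 and the tools were bcl2fastq, FastQC and RSEM, per the submitters' processing notes; versions, aligner and annotation: not given in the sources used here. In unit, the deposited values are a normalized signal: RSEM expected counts that the authors scaled between libraries, as the grid of the values shows. Every column belonged to a sample. Of the genes in the marker lists, 1 is not reported here.

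A gene was tested if it reached 10 in 4 or more of the 18 libraries (9437 genes). limma 3.58.1 (R 4.3.3) was fitted to log2(value + 1), a scale that understates changes of low genes, with 1 mean per group, 14 residual degrees of freedom, an intensity trend (prior degrees of freedom 6.43), two-sided tests and Benjamini-Hochberg adjustment over all tested genes at 0.05. The fit was also run on simulated counts, drawn independently for each gene with a common dispersion. They held no shift shared by many genes of a library, so they do not speak for the p-values given here. Count models were not run. Python 3.11.15, numpy 2.4.6, pandas 2.3.3 and matplotlib 3.10.9 did the rest. Gene models came from GENCODE M21, promoters from RefSeq.

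Values in every library are given for 31 genes: the member with the smallest p in each class and comparison of groups, the 3 smallest in the interaction, complex II and isoform sets. Members and lists were chosen with earlier results of these data known, and other genes named with values (among them Ndufa1, Ndufb6, Ndufb9, Uqcrh and Atp5b) were chosen after their values were seen. Alternatives changed the pseudocount, filter, scaling, weights, replicate block, libraries and groups, and added a length covariate.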

Additional observations from a re-analysis of the deposited data

Results flagged for a closer look

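Among 152 sets of 4 or 5 libraries examined for a single distant value, 9 held one, and chance gives about 1 in 20. Dock2-deficient memory library 5 was far above its group for Sdhd (log2(value + 1) of 6.93, the others 6.12 to 6.29), for Cox6b1 (7.57, the others 6.46 to 6.68) and for the median of complex II (7.55, the others 6.58 to 6.77). Wild-type naive library 1 was far below its group for Ndufa5 (4.56, the others 5.28 to 5.38), for Cox6b1 (5.49, the others 6.30 to 6.45) and for the median of complex III (5.84, the others 6.64 to 6.71). Ndufa5 was also far below its group in Dock2-deficient memory library 1 (4.59, the others 5.81 to 5.97). Cox7a2 was far above in Dock2-deficient naive library 4 (6.87, the others 6.46 to 6.50), and the median of complex II in wild-type naive library 3 (6.72, the others 6.20 to 6.28). The 9 distant values fell in 5 libraries.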

How the results depend on the processing

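Of 216 recomputed counts and medians 213 kept their side of the threshold or moved by less than the spread between libraries. That is a wide margin. The spread was 0.230 in Dock2-deficient memory against naive cells and 0.231 between naive groups, above the medians there (0.22 and 0.18). Such a median could reach 0 and still be counted as kept, so the count does not show that the medians are stable. The exceptions came with the length index as a covariate, which was chosen after seeing the data: 1 member (Cox7a2l) was called in wild-type memory against naive cells, and the members' median became -0.037 in Dock2-deficient memory against naive cells and 0.13 between memory groups, where 4 members had an unadjusted p under 0.05. The median in the interaction was then 0.01, against 0.23 without the covariate. The cause was not tested, and the shares of all tested genes with the covariate are not given here. Under the other alternatives no member was called, and the smallest adjusted p was 0.0548, in Dock2-deficient memory against naive cells without Dock2-deficient memory library 1. Of 3318 recomputed values of the 31 genes 3147 kept direction and side, 170 uncalled ones changed sign and 1 became called.

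Leaving out single libraries moved the medians. Members at an unadjusted p under 0.05 are counted here without the share of all tested genes in the same setting. Whether these counts moved with the whole table was not tested. Between memory groups the range was 0.34 (without Dock2-deficient library 5) to 0.54 (without library 4), with 8 to 38 members at an unadjusted p under 0.05 (12 without wild-type library 2, 14 without Dock2-deficient library 3, 38 without Dock2-deficient library 4). In Dock2-deficient memory against naive cells it was 0.08 (without memory library 5) to 0.31 (without memory library 4), with 1 to 15 such members (1 without naive library 3, 2 without memory library 5, 12 without memory library 4, 13 without memory library 1, 15 without naive library 4). Between naive groups it was 0.04 (without wild-type library 1; 0.05 without Dock2-deficient library 4) to 0.25 (without wild-type library 3), in wild-type memory against naive cells -0.18 (without naive library 1) to 0.07 (without naive library 3), and in the interaction 0.13 (without Dock2-deficient memory library 5 or wild-type naive library 3) to 0.37 (without wild-type naive library 1). With the replicate number as a block no member was called, and medians were -0.05, 0.22, 0.09, 0.39 and 0.23 for wild-type and Dock2-deficient memory against naive cells, naive groups, memory groups and the interaction. The numbers do not establish pairing: residual correlations of same-numbered libraries ran from -0.253 to 0.303.

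Depth limits the low members most: Ndufb4 and the assembly factors have mean values of 8.86 to 23.1. The fit within only the groups compared was not run for the interaction, and length classes over 1500 bases hold 16 and 5 members.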

Other observations

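Among the genes of the context lists, Ldhb, a subunit of lactate dehydrogenase, had log2 fold changes of -2.04 ± 0.63 (SE, adjusted p = 0.0988 from limma) in Dock2-deficient memory against naive cells and -1.73 ± 0.70 (SE, adjusted p = 0.293) in wild-type memory against naive cells. Idh2, the mitochondrial isocitrate dehydrogenase that depends on NADP, was at -1.01 ± 0.31 (SE, adjusted p = 0.0985) in wild-type and -0.77 ± 0.28 (SE, adjusted p = 0.194) in Dock2-deficient memory against naive cells. Neither passed the test, and both were named by the smallest p of their lists.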
